A study of Mus musculus with 4 samples.

Results

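The 9 upper-layer cortical neuron transcription factors Cux1, Cux2, Pou3f1, Pou3f2, Pou3f3, Rorb, Lhx2, Mef2c and Bhlhe22 were taken by symbol from a deposited table of 32681 genes. All 9 were found and all 9 were among the 18110 genes that passed the filter on low values and were tested. RNA had been sequenced from primary neuron cultures prepared from the neocortex of wild-type CD-1 mouse embryos at embryonic day 13. Of the 4 libraries, 2 were from cells that received a control short hairpin RNA (shRNA), and 2 from cells that received a hairpin directed at DcpS. DcpS is the scavenger decapping enzyme, which breaks down the cap that remains once an mRNA has been degraded. The titles of the DcpS shRNA libraries carry the name shDcPS-2, so they stand for a single named hairpin. The labels state neither the days in culture nor the share of cells that took up the hairpin. Since separate litters are not stated either, the spread between libraries behind each p-value may be technical.

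Upper-layer neurons are the late-born projection neurons of the neocortex, which settle above the earlier-born deep-layer neurons and connect largely with other cortical areas. Their identity is set by families of DNA-binding proteins that act in sequence, first in dividing progenitors and then in the neurons these give rise to. Several of the 9 genes are also used by other cells: Lhx2 and the POU3F genes by cortical progenitors, and Mef2c by interneurons, microglia and endothelium.

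With DcpS shRNA, Pou3f2 passed the test as lower and none of the other 8 factors passed. Pou3f2 did not pass with DESeq2 (adjusted p 0.0606), or when control 1 or DcpS shRNA 1 was left out. Pou3f2 encodes a POU-homeodomain protein that acts with its relative Pou3f3 in producing and positioning upper-layer neurons. Its mean normalised read count went from 2528 ± 128 in controls to 2127 ± 144 with DcpS shRNA (SD, n = 2 per group), 84.1% of the control mean. Of the 9 genes, 8 had a lower estimate with DcpS shRNA and 1, the nuclear receptor Rorb, had a higher one. Called here means a Benjamini-Hochberg adjusted p under 0.05 over all tested genes in limma. By that rule 5.79% of all tested genes were called in either direction and 3.65% as lower, and the single call among the 9 factors stands beside those shares.

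The targeted transcript was lower in both libraries that received the hairpin. Dcps had 499.8 and 507 normalised reads in the controls against 114 and 119.6 with DcpS shRNA, a log2 fold change of −2.10 (SE 0.11). The 4 libraries held 17754768 to 21793685 reads. Same-group libraries lay further apart than counting noise: chi-square divided by its degrees of freedom, which is near 1 for noise alone, was 2.15 for the controls and 4.03 for the DcpS shRNA libraries. Across all tested genes 387 were called higher and 661 lower.

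Short words shared with Dcps were looked for in the annotated 3′ UTRs, because earlier results on these data had singled them out. The words are ACGTGCA and CACGTGC, searched on the transcript's own strand. They overlap, so that one 8-base stretch can hold both. Both words occur in the Dcps coding sequence, and 3 of the 9 factors hold at least 1 of them in a 3′ UTR: Cux1 holds both, and Pou3f2 and Lhx2 hold CACGTGC. The other 6 factors have neither word in an annotated 3′ UTR. The 4 stretches of 30 bases below show what these transcripts share and how far they match beyond the words, which are in capitals. They are from GENCODE M21 transcripts on GRCm38, 5′ to 3′ on the transcript strand. The Dcps stretch is at chr9:35124745-35124774 (minus strand), the Cux1 stretch at chr5:136273644-136273673 (minus strand), the Pou3f2 stretch at chr4:22486292-22486321 (minus strand) and the Lhx2 stretch at chr2:38369428-38369457 (plus strand).
Dcps: actatcacctgCACGTGCAtttcacagctc
Cux1: agttagtcccgCACGTGCAggccaccgtct
Pou3f2: ctcaaagttgaCACGTGCtgctgtgtttat
Lhx2: tcaaagactgcCACGTGCcttaggaatact

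In Pou3f2 the word starts 484 bases into a 3′ UTR of 4014 bases, in Lhx2 310 bases into one of 604, and in Cux1 1129 bases into one of 8376. Of 13708 tested genes with a scanned 3′ UTR, 1097 (8.0%) hold a word. Among those, 19.5% were called lower, against 3.43% of the genes without one, and the median log2 fold changes were −0.10 and 0.01. The word was therefore commoner among called lower genes across the whole table, from which it had been chosen. Genes with and without a word were not matched on 3′ UTR length or on level. Among the 3 factors that hold it, Pou3f2 was called, while Lhx2 (log2 fold change −0.16) and Cux1 (−0.09), which has the longer match, were not. The part of the word in any of these values was not tested.

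Pou3f2 (chromosome 4, 22482780 to 22488366, minus strand, GRCm38) is a gene of 1 exon. It had 2619 and 2438 normalised reads in control 1 and 2, and 2025 and 2229 in DcpS shRNA 1 and 2. Both DcpS shRNA libraries lay below both controls. The log2 fold change was −0.25 (SE 0.06, 95% interval −0.38 to −0.12), with an adjusted p of 0.0215 (limma, Benjamini-Hochberg). The gap between the DcpS shRNA libraries was 3.12 times, and that between the controls 2.56 times, what counting error gives for it. The call ended without control 1 and without DcpS shRNA 1, and with DESeq2 (adjusted p 0.0606). The estimate stayed below 0 in each of these, between −0.32 and −0.18 over the 4 fits that leave out 1 library.

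Its relatives of the POU3F family gave smaller differences that did not pass. Pou3f3 (chromosome 1, 42695768 to 42703176, plus strand), the partner that can stand in for Pou3f2 in cortical progenitors, had 9095 and 8664 normalised reads in the controls against 8252 and 8142 with DcpS shRNA. Its groups did not overlap, yet the log2 fold change of −0.11 (SE 0.05) did not pass (limma adjusted p 0.229). Pou3f1 (chromosome 4, 124656807 to 124660655, plus strand), better known for its role in myelinating Schwann cells and also expressed by upper-layer neurons, had 534 and 460.5 normalised reads in the controls against 441 and 450.4 with DcpS shRNA. The Pou3f1 groups were barely separated, control 2 lying just above DcpS shRNA 2, and its log2 fold change was −0.15 with a 95% interval from −0.34 to 0.03. Control 1 stood above the other 3 libraries for Pou3f1, and without it the estimate was −0.05. Pou3f4, the remaining gene of the family, had 211.9 and 196 normalised reads in the controls against 214 and 206 with DcpS shRNA, which overlapped.

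Taken per kilobase of exon, Pou3f2 made up 24.6% and 24.3% of the summed POU3F signal in the controls against 21.8% and 23.7% with DcpS shRNA. Pou3f3 made up 64.4% and 65.2% in the controls against 66.9% and 65.2% with DcpS shRNA, and was the most abundant family gene in each library. The ratio of Pou3f2 to Pou3f3 was 38.2% and 37.3% in the controls against 32.5% and 36.3% with DcpS shRNA. The ratio was lower in both DcpS shRNA libraries, but the exact two-sided permutation test over the samples (p = 0.333) cannot go lower with 2 libraries against 2. It therefore leaves unanswered whether Pou3f2 and Pou3f3 responded differently.

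The POU3F genes have no introns and related coding sequences, so it was asked whether reads could be credited to the wrong relative. No stretch of 50 bases was identical between any pair of the 4 transcripts. That search took 50 bases as a set length and counted exact matches only, so the crediting of reads itself was not tested. The longest identical run was 38 bases, in the coding sequences of Pou3f1 and Pou3f2, printed as the longest exact match.
Pou3f1 and Pou3f2: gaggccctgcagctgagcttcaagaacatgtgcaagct

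Outside the family, 7.42% of the 50-base words of Pou3f1 were shared with another annotated gene, all with its overlapping antisense transcript Gm2164. The share was 1.97% for Cux1, 0.560% for Pou3f2 and under that for the remaining 6 factors, with 0 words shared for Lhx2, Mef2c and Bhlhe22. The treatment of reads that match more than 1 gene is not stated.

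Cux1 and Cux2 are CUT-domain homeobox genes that mark upper-layer neurons and shape their dendrites and synapses. Cux1 (chromosome 5, 136248135 to 136567490, minus strand) had 3439.6 and 3358 normalised reads in the controls against 3211 and 3196 with DcpS shRNA. Cux2 (chromosome 5, 121856366 to 122050102, minus strand) had 1134 and 1119.9 normalised reads in the controls against 1098 and 1039 with DcpS shRNA. For both genes each DcpS shRNA library lay below each control, by 5.74% of the control mean for Cux1 and 5.17% for Cux2 when the group means are compared. The 95% intervals of the log2 fold changes ran from −0.19 to 0.02 for Cux1 and from −0.21 to 0.05 for Cux2, and neither passed (limma adjusted p 0.404 and 0.553). Their replicates were the closest of the 9 genes in the controls: the control gap was 1.00 times counting error for Cux1 and 0.290 times for Cux2. The ratio of Cux2 to Cux1 per kilobase was 65.5% and 66.2% in the controls against 67.9% and 64.6% with DcpS shRNA, so the groups overlapped. The Cux1 locus also encodes CASP, a Golgi protein that shares its first exons, and the table gives a single value for both.

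Mef2c, a MADS-box factor needed for the differentiation and layering of cortical neurons and for the number of their excitatory synapses, came next to Pou3f2 in the lower direction. It lies on chromosome 13 (83504034 to 83667080, plus strand), and had 3008 and 3119 normalised reads in the controls against 2725 and 2695 with DcpS shRNA. The groups were well apart for the spread within them, which was within 1.42 times counting error in both groups. The log2 fold change was −0.18 (SE 0.05, 95% interval −0.29 to −0.07), with an adjusted p of 0.0588 that missed the threshold (limma, Benjamini-Hochberg). Without DcpS shRNA 1 it passed (limma adjusted p 0.0282), and without control 2 the adjusted p was 0.438. Other MEF2 genes did not pass: Mef2a had a log2 fold change of −0.15 and Mef2d one of 0.11, with no overlap between the groups for either.

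Rorb, an orphan nuclear receptor that marks the neurons receiving thalamic input and takes part in their clustering, was the only factor with a higher estimate. Rorb (chromosome 19, 18930605 to 19111196, minus strand) had 309 and 377 normalised reads in the controls against 429.8 and 419 with DcpS shRNA. Both DcpS shRNA libraries lay above both controls, and the spread came from the controls, whose gap was 2.64 times counting error against 0.364 times for the DcpS shRNA libraries. The log2 fold change was 0.31 (SE 0.10, 95% interval 0.10 to 0.53), with an adjusted p of 0.0853 (limma, Benjamini-Hochberg). The estimate was 0.46 without control 2, where it passed (limma adjusted p 0.0161), and 0.17 without control 1 (0.569). Rora, the related receptor, had 173 and 157 normalised reads in the controls against 121 and 135 with DcpS shRNA, a log2 fold change of −0.36 that did not pass (limma adjusted p 0.146).

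Lhx2 and Bhlhe22 were the factors whose groups overlapped. Lhx2, a LIM-homeodomain protein that assigns cortical identity to progenitors and is kept in upper-layer neurons, lies on chromosome 2 (38339281 to 38369733, plus strand) and had 6120.0 and 5254 normalised reads in the controls against 5295 and 4888 with DcpS shRNA. Control 1 stood apart from the other 3 libraries, and the control gap was 8.15 times counting error. The log2 fold change was −0.16 (SE 0.07, limma adjusted p 0.225), and −0.05 without control 1. Bhlhe22, a basic helix-loop-helix repressor of postmitotic cortical neurons, lies on chromosome 3 (18054174 to 18057517, plus strand) and had 4737 and 4301 normalised reads in the controls against 4205 and 4614 with DcpS shRNA. Its replicate gaps were 4.60 and 4.34 times counting error, and its log2 fold change of −0.04 (95% interval −0.16 to 0.09) turned to 0.03 without control 1 or without DcpS shRNA 1.

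**Figure D1:**
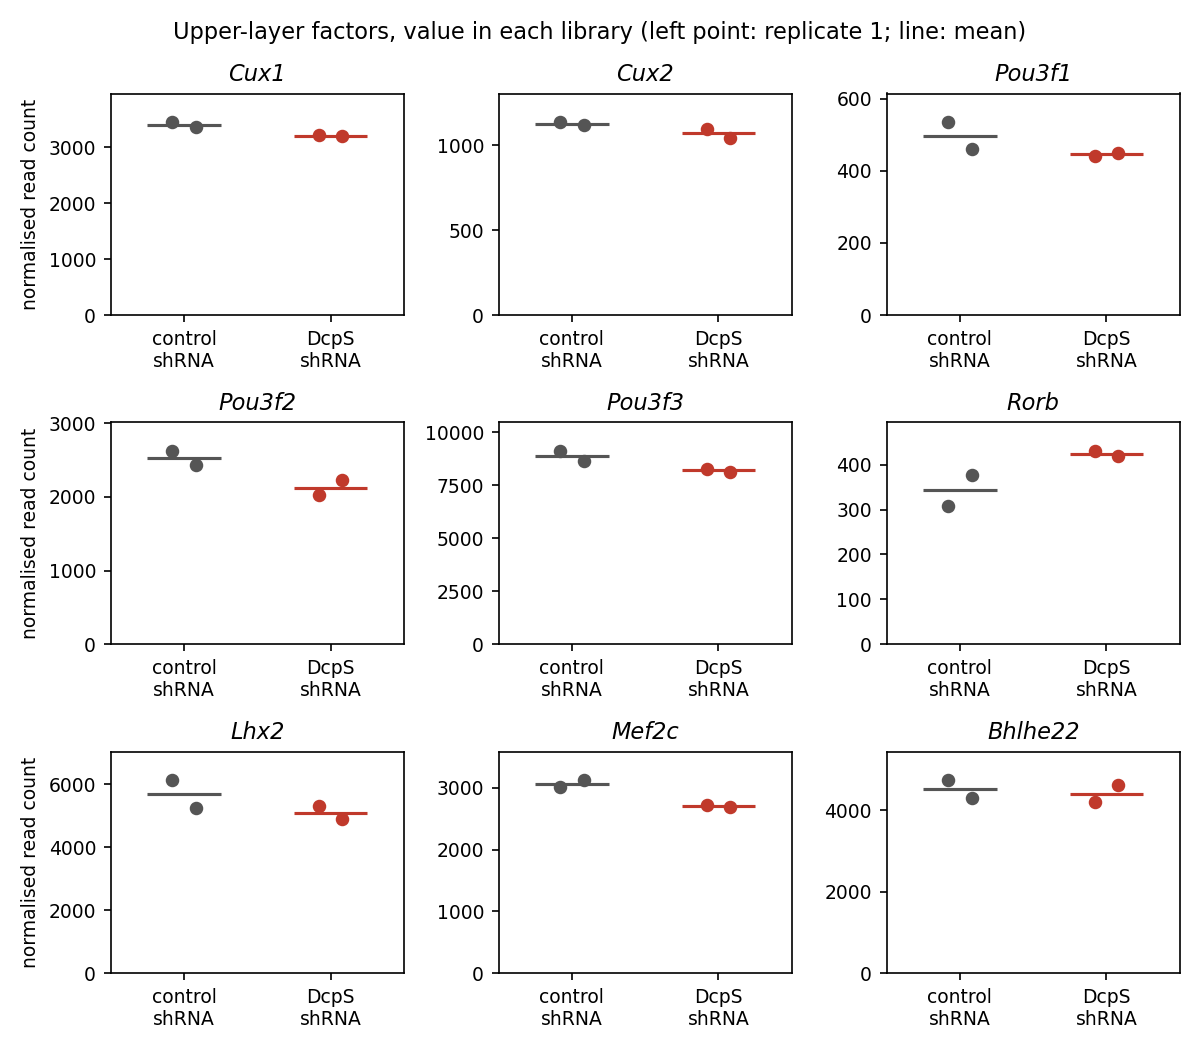
Normalised read count (vertical axes, each from 0) of the 9 factors in the 2 control shRNA and 2 DcpS shRNA libraries; points are libraries, replicate 1 on the left, and lines are group means. Pou3f2 lies lower with DcpS shRNA (2025 and 2229 against 2438 and 2619), Rorb higher, and the groups of Lhx2 and Bhlhe22 overlap.

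Across the 9 factors, 6 had both DcpS shRNA libraries below both controls, 1 had both above, and 2 overlapped. Of all tested genes, 24.0% were separated in the lower direction and 48.4% in either direction. An unadjusted p under 0.05 was reached by 5 of the 9 factors and by 18.7% of all tested genes (limma). The median log2 fold change of the 9 was −0.11, beside 0.00 for all tested genes, of which 49.8% had a lower estimate. The sizes were small: outside Pou3f2 and Rorb, no estimate went past the −0.18 of Mef2c, and the median size over all tested genes was 0.11. In a bulk culture, fewer cells of a type and less RNA per cell cannot be told apart.

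**Figure D2:**
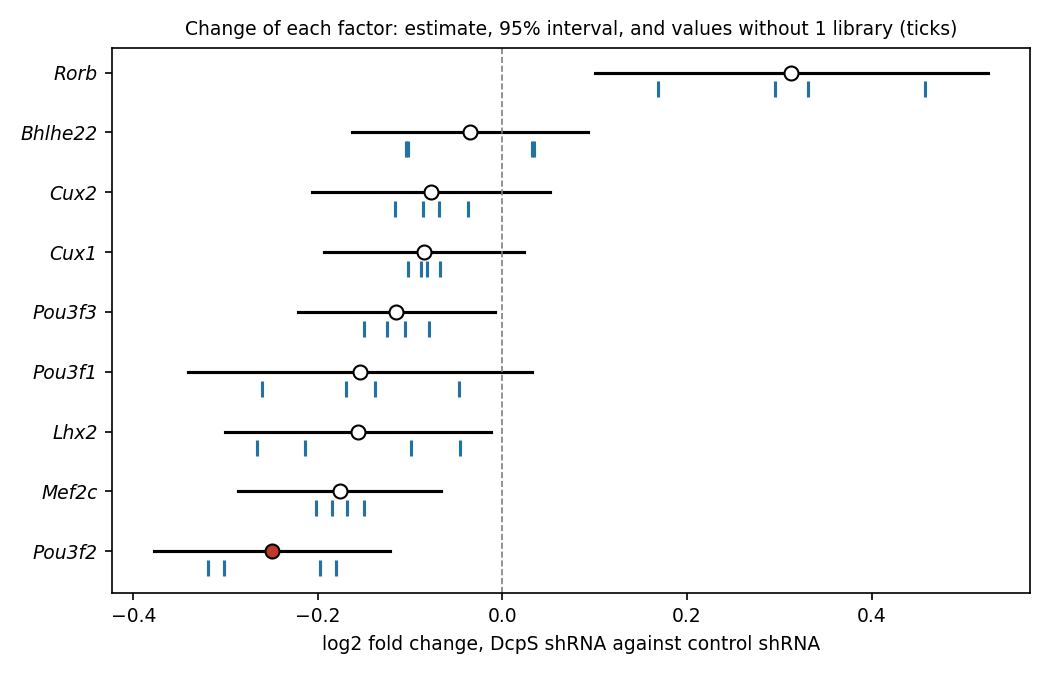
Log2 fold change of each factor with DcpS shRNA against control shRNA (horizontal axis; circle, limma estimate; line, 95% interval; filled, adjusted p under 0.05; ticks below, the 4 estimates that each leave out 1 library). Pou3f2 at −0.25 is the filled circle, and Bhlhe22 is the factor whose ticks fall on both sides of 0.

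The levels themselves covered a wide range. Per kilobase of exon, and averaged over the 4 libraries, Bhlhe22 was the most abundant at 1335 ± 75.4 normalised reads (SD, n = 4), followed by Lhx2 at 1227 ± 118 and Pou3f3 at 1152 ± 58.6. The ranges of these 3 overlapped from one gene to the next, although the order was the same in each of the 4 libraries. Pou3f2 followed at 417 ± 46.0, apart from its neighbours, then Mef2c at 184 ± 13.3 and Cux1 at 165 ± 5.88, whose ranges overlapped. Pou3f1 at 122 ± 11.0, Cux2 at 109 ± 4.13 and Rorb at 34.6 ± 4.95 closed the order without overlap. Exon lengths here are the union over annotated transcripts, so genes with many transcripts, such as Mef2c with 31 and Cux1 with 14, are set lower than the single-exon POU3F genes and Bhlhe22. By mean normalised read count, the 9 factors lay between the 51.5th (Rorb) and the 98.6th (Pou3f3) percentile of the tested genes.

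**Figure D3:**
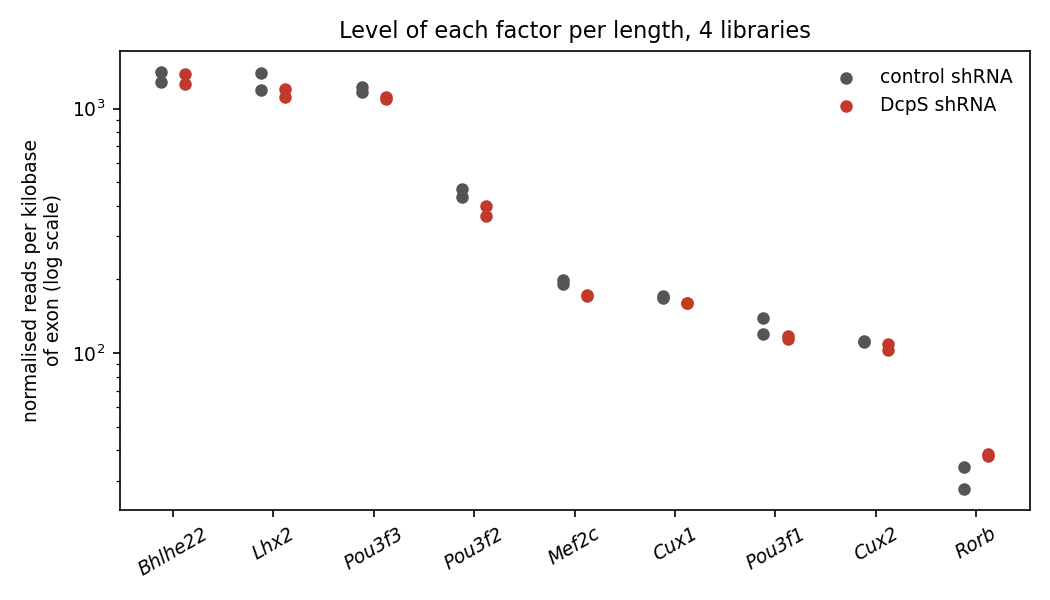
Level of the 9 factors in normalised reads per kilobase of exon (vertical log axis) in the control shRNA and DcpS shRNA libraries, ordered by the mean over the 4 libraries; each point is a library. The order runs from Bhlhe22 at 1335 to Rorb at 34.6 on the scale per kilobase.

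In the wider families of the 9 factors few genes passed the same test. Of 21 listed POU, CUT, ROR, LIM-homeobox, MEF2 and BHLHE relatives, 19 were tested and 1 was called, as lower, with a median log2 fold change of −0.06. The called gene was Bhlhe41, a circadian and differentiation repressor, with 41.8 and 36.9 normalised reads in the controls against 20.9 and 15.6 with DcpS shRNA (log2 fold change −1.08, SE 0.28, limma adjusted p 0.0325). Its call ended without control 1 (limma adjusted p 0.184), control 2 (0.0865) or DcpS shRNA 2 (0.114), and with DESeq2 (0.325). Among 17 cofactors, such as the LIM-binding Ldb1 and Ldb2, the class II histone deacetylases that bind MEF2 and the SOX partners of POU proteins, 1 was called, as lower, with a median of −0.05. That gene was Sox4, which promotes neuronal differentiation, at 21044 and 19889 normalised reads in the controls against 17146 and 17737 with DcpS shRNA (log2 fold change −0.23, SE 0.05, limma adjusted p 0.0126). Sox4 was not called when control 1 (limma adjusted p 0.343) or control 2 (0.103) was left out. Prdm8, which forms a repressor complex with Bhlhe22, had a log2 fold change of −0.15 with overlapping groups.

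Other genes of upper-layer neurons were called in both directions. Of 14 listed, 12 were tested, with 2 called lower, 1 called higher and a median log2 fold change of −0.07. The netrin receptor Unc5d had 1894 and 1985 normalised reads in the controls against 1456 and 1428 with DcpS shRNA (log2 fold change −0.43, SE 0.06). Inhba, a subunit of activin, had 463 and 500.5 in the controls against 354 and 379.9 with DcpS shRNA (−0.39, SE 0.09), which was no longer called without control 2 (limma adjusted p 0.128) or with DESeq2 (0.104). The semaphorin receptor Plxnd1 had 1244 and 1309 normalised reads in the controls against 2153 and 2129.9 with DcpS shRNA (0.75, SE 0.06). These 3 estimates were each larger in size than that of Pou3f2, a difference between genes that was not tested.

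The deep-layer factors gave a similar picture, with 1 of 11 called lower, 1 higher and a median log2 fold change of −0.04. Etv1, an ETS factor of corticostriatal neurons, had 496 and 565 normalised reads in the controls against 394 and 346 with DcpS shRNA (−0.52, SE 0.09), and Zfpm2 had 821 and 744 in the controls against 961.3 and 961.0 with DcpS shRNA (0.30, SE 0.07). The call of Zfpm2 ended without control 2 (limma adjusted p 0.189) and with DESeq2 (0.108). The subcerebral regulators Fezf2 and Bcl11b had log2 fold changes of 0.05 and −0.04, and Tbr1 one of −0.03, none of which passed. Nr4a2 (−0.28) and Tle4 (−0.17) had both DcpS shRNA libraries below both controls. Neither passed (limma adjusted p 0.0847 and 0.130). Of the 11, 8 had a lower estimate and 3 a higher one. The difference between the upper-layer and the deep-layer factors was not tested.

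**Figure D4:**
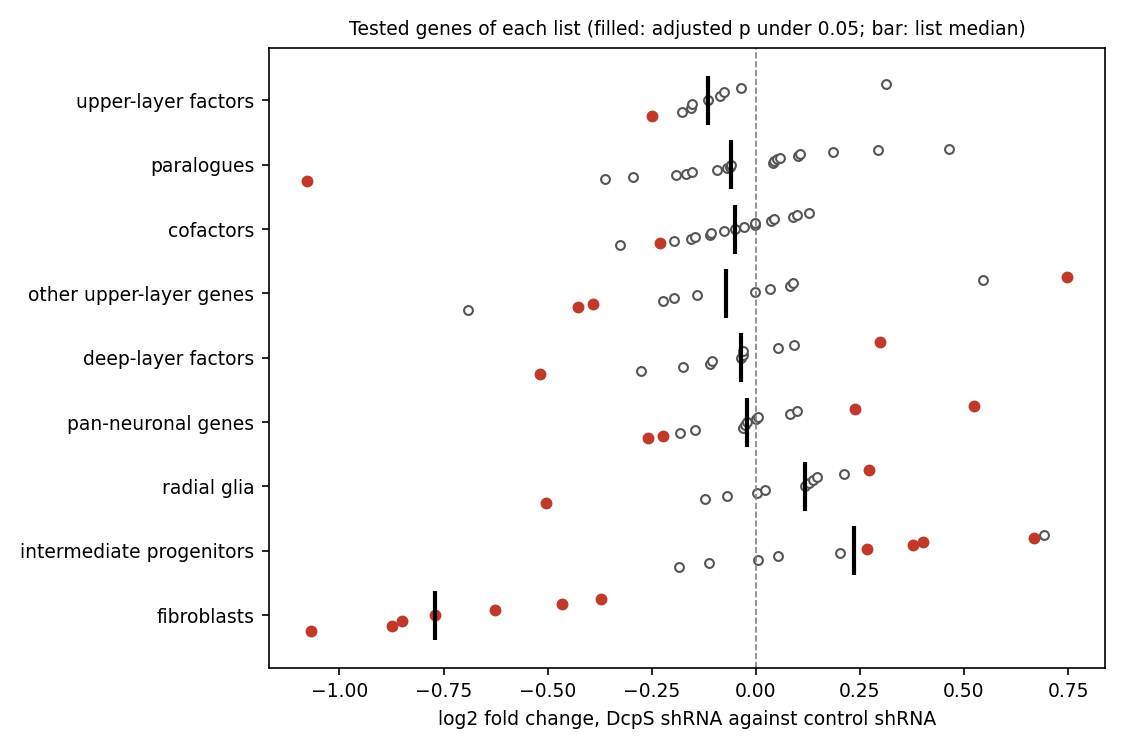
Log2 fold change with DcpS shRNA against control shRNA (horizontal axis) of each tested gene in 9 lists; filled circles passed at adjusted p under 0.05 in limma, open circles did not, and bars are list medians. The upper-layer factors lie within a narrow band around their median of −0.11, apart from Rorb at 0.31, while the 7 fibroblast genes have the lowest median of the lists, −0.77.

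Markers of the labelled cell type, neurons, were abundant in all 4 libraries. The 13 pan-neuronal genes summed to 102553 and 100824 normalised reads in the controls against 98020.3 and 97327 with DcpS shRNA, of which the microtubule gene Dcx alone gave 22989 to 26693. Of these 13 genes, 2 were called higher and 2 lower, with a median log2 fold change of −0.02. The vesicular transporter Slc17a7 (0.52, SE 0.06) and the splicing factor Rbfox3 (0.24, SE 0.06) rose, and the vesicle-fusion genes Snap25 (−0.26, SE 0.06) and Syt1 (−0.22, SE 0.06) fell. The call of Rbfox3 ended without control 2 or DcpS shRNA 2, that of Syt1 without control 1 or control 2, that of Snap25 without control 1, and those of Rbfox3 and Syt1 with DESeq2.

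Markers of other cells, of which the background above names only some as users of these factors, moved unevenly. Radial glia markers, which share Lhx2 and the POU3F genes, summed to 32019 and 30337 normalised reads in the controls against 32320.3 and 32262 with DcpS shRNA, with 1 of 11 genes called higher (Nes) and 1 lower (Hopx). Intermediate progenitor markers summed to 13958 and 13079.6 in the controls against 14439.8 and 13877 with DcpS shRNA, with 4 of 10 called higher (Btg2, Rhbdl3, Neurod4 and Mfng). Of the 10, 8 had a higher estimate, among them Eomes at 0.05, and 2 a lower one, Neurog2 (−0.19) and Elavl4 (−0.11). Eomes, Neurog2 and Elavl4 were not called. The radial glia sum was a little higher in both DcpS shRNA libraries, the intermediate progenitor sum overlapped between groups, and the list medians were 0.12 and 0.23. Of these calls, that of Nes ended without control 1 or control 2, those of Neurod4 and Mfng without control 2, that of Mfng also without DcpS shRNA 1, and those of Hopx, Neurod4 and Mfng with DESeq2. Of the cells that use Mef2c, the 11 GABAergic interneuron markers summed to 557 and 603 in the controls against 547 and 577 with DcpS shRNA, with a median log2 fold change of −0.09. Of the 10 tested, 1 was called, the neuropeptide gene Npy, as higher (1.13, SE 0.24), a call that DESeq2 did not make (adjusted p 0.134), and the GABA-synthesising enzyme gene Gad1 had a log2 fold change of −0.55 that did not pass (limma adjusted p 0.0716). The 10 microglial markers summed to 212 and 214 in the controls against 192 and 223 with DcpS shRNA. Endothelial and mural markers summed to 713 and 779 in the controls against 445 and 412 with DcpS shRNA, 57.5% of the control mean. Most of that sum came from Pdgfrb, a gene of mural cells, with 506 and 534 normalised reads in the controls against 329 and 304 with DcpS shRNA. Of 6 tested, 5 had a lower estimate and 3 were called lower, the mural genes Acta2 and Pdgfrb and the endothelial Kdr, while the endothelial gene Pecam1 had a higher one (0.93, limma adjusted p 0.263), with 5.70 and 12.3 normalised reads in the controls against 19.99 and 14.5 with DcpS shRNA. Fibroblast markers summed to 11251 and 12352.5 in the controls against 6844 and 6631 with DcpS shRNA, 57.1% of the control mean, with 7 of 7 called lower. Leaving out 1 library gave 4 to 7 fibroblast calls and 2 or 3 endothelial and mural ones, and DESeq2 gave 4 and 2. Astrocyte markers summed to 93.4% of the control mean, with Aldoc, which was called higher, as the most abundant gene. Yet 4 of 7 tested were called lower (Gja1, Sparcl1, Aqp4 and Gfap) and the median log2 fold change was −0.45. DESeq2 called 3 astrocyte genes lower, without Aqp4 (adjusted p 0.110). The call of Aldoc ended without control 1 or control 2, and those of Aqp4 and Gfap without control 2 or DcpS shRNA 1. The gap between the controls for Gfap was 4.68 times counting error. Oligodendrocyte-lineage markers summed to 93.4% of the control mean, with 1 of 7 tested called lower, 1 called higher and a median of −0.22. The lower one was Pdgfra, which is also 1 of the 7 fibroblast genes, and the higher one was Mbp. DESeq2 called neither. The endothelial genes Cldn5 and Tek and the microglial genes P2ry12 and Trem2 were at or near 0, between 0 and 4.75 normalised reads, and no listed marker was at 0 in all 4 libraries. The part of these cells in the values of Mef2c, Lhx2 or the POU3F genes was not tested.

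Genes beside the factors did not pass the test. Within 50000 bases of the 9 genes the annotation places 36 others, of which 19 were tested. Of these, limma called 0 (4 at an unadjusted p under 0.05), and edgeR and DESeq2 also called 0. Of all tested genes, limma called 5.79%, and 18.7% had an unadjusted p under 0.05. With shares this low and 19 genes, a count of 0 says little about the neighbours. The long non-coding RNA Pantr1, which starts 926 bases from Pou3f3 on the opposite strand, had 2261 and 2186 normalised reads in the controls against 2027 and 2265 with DcpS shRNA, a log2 fold change of −0.05 with overlapping groups. Pantr2, on the other side of Pou3f3, had a log2 fold change of 0.23 and Gm30731, beside Pou3f2, one of 0.24, neither of which passed (limma adjusted p 0.330 and 0.527). Of the overlapping genes 3 were tested: Gm2164 across the start of Pou3f1, and Gm13584 and Gm27197 within Lhx2 (27.6 to 71.8 normalised reads). Gm2164 had 33.3 and 31.8 normalised reads in the controls against 15.4 and 20.1 with DcpS shRNA, a log2 fold change of −0.85 (95% interval −1.47 to −0.23) that did not pass (limma adjusted p 0.114). Their levels were small beside those of Pou3f1 and Lhx2. Whether the counting used strand is not stated, so reads of a factor and its antisense partner may not be separated.

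Among the 137 tested genes of the other lists, those whose pattern over the 4 libraries was nearest to that of Pou3f2 were Snap25, Sox4 and Nr4a2, a nuclear receptor of early-born cortical neurons. Their distances, on centred log2 values, were 0.0495, 0.0681 and 0.0774. Snap25 had 3808 and 3718 normalised reads in the controls against 3005 and 3292 with DcpS shRNA, so that, as for Pou3f2, DcpS shRNA 1 was the lowest library. With 4 libraries this likeness is a description of them and no more.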

How the data were processed

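Per the labels, total RNA was extracted with Trizol. Per the submitters' processing notes, HISAT2 2.2.0, SAMtools 1.3.1, Picard, featureCounts, DESeq2 and the build GRCm38 were used, with no role or order given. The deposited values are a signal, taken as read counts divided by the authors by a size factor per library. In each column 100% of values were whole multiples of the column's smallest value (tolerance 0.001). The inverse of that smallest value equalled the library's median-of-ratios factor (0.895 to 1.10). Dividing by the column's smallest value gave reads, 17754768 to 21793685 per library. A count of 0 allows 3 reads, 2.73 to 3.35 normalised reads, for counting error only.

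Genes were kept by edgeR 4.0.16 filterByExpr (minimum count 10) on those reads. The test was limma 3.58.1 (R 4.3.3) on log2(value + 1), group as the only term, with trend and robust empirical Bayes and 2 residual degrees of freedom, two-sided, Benjamini-Hochberg adjusted over 18110 genes at 0.05. Fold changes are on that scale, which understates low genes. These steps were tested on simulated reads with known changes. Alternatives were edgeR's quasi-likelihood test, DESeq2 1.42.0, other scalings, pseudocounts and filters, a replicate block, and leaving out each library. Replicate 1 and 2 are the numbers after "set" in the titles. Ratios between genes were compared with an exact permutation test (scipy 1.17.1).

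The members and lists were chosen with earlier results of these data known. Named genes were the 9 factors, Dcps, up to 4 called genes of each list by adjusted p, called or overlapping neighbours, and the 3 listed genes nearest to a called factor in pattern; other listed genes named above were chosen after their values were seen. Gene models and 3′ UTRs came from GENCODE M21 (GRCm38).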

Additional observations from a re-analysis of the deposited data

How the results depend on the processing

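The number of factors called was 1 (Pou3f2) under each of the other scalings, pseudocounts and filters and with edgeR's quasi-likelihood test. DESeq2 called 0 of the 9 factors, and 448 genes in all in place of 1048. At an unadjusted p under 0.05, DESeq2 had 4 of the 9, beside 1590 of the 18110 tested genes. Leaving out 1 library changed which factors were called. Over those fits the estimate ran from −0.32 to −0.18 for Pou3f2, from 0.17 to 0.46 for Rorb and from −0.20 to −0.15 for Mef2c. The number of called genes then ran from 594 (without control 2) to 1439 (without DcpS shRNA 1). With the replicate number as a block (replicate block), 3 factors were called by limma and 3 by edgeR, Pou3f2, Rorb and Mef2c. Of all tested genes, limma with the block called 1626 and edgeR with the block 1405. The titles do not say what the number stands for, and same-numbered libraries deviated together only weakly (correlation 0.04 across the tested genes), so the libraries share a number and no more is known. Of 126 values of single factors under 14 alternatives, 2 changed sign, both for Bhlhe22, whose estimate was 0.034 without control 1, 0.032 without DcpS shRNA 1 and −0.10 without either of the others. Scaling by TMM or by library total moved the median of all genes by less than 0.001. With 2 libraries a group, the spread used for each gene is borrowed in part from all genes. The 95% intervals of the 8 factors that were not called leave room for differences such as −0.34 for Pou3f1 or −0.30 for Lhx2.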
